A study of Mus musculus with 2 samples.

Results

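The proteasome is the large protease that degrades ubiquitin-tagged proteins, and its subunit genes were followed here through the epithelium of the embryonic mouse small intestine. The members were all gene columns named Psma, Psmb, Psmc, Psmd, Psme, Psmf or Psmg plus a number, without Psmb8 and Psmb9, which gave 46 of the 25663 genes in the table. They comprised 17 core genes (Psma and Psmb), 24 regulatory genes (Psmc, Psmd and Psme) and 5 others, namely the inhibitor Psmf1 and the assembly chaperones Psmg1 to Psmg4.

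The catalytic core is a barrel of stacked rings, in which the alpha subunits form the gated ends and the beta subunits carry the protease sites in the interior. A regulatory cap of ATPase subunits (Psmc) and non-ATPase subunits (Psmd) binds ubiquitin chains, unfolds the substrate and feeds it into the barrel, while Psme1 and Psme2 form another cap that opens the gate without ubiquitin. The intestinal epithelium renews from dividing progenitors that become absorptive enterocytes or secretory cells such as goblet cells, and immune signals exchange some catalytic beta subunits for inducible forms, of which Psmb10 is a member here.

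Sorted small intestine epithelium of C57BL6/J mice was measured by single-cell RNA sequencing at stage E18.5, with 1 Control library and 1 Tet3 knockout library, each pooled from 2 embryos. Tet3, an enzyme that oxidises methylated cytosine in DNA, carried a germline deletion of a floxed exon made with Cre in embryonic stem cells, so the knockout was not limited to the epithelium, and cells were stored in methanol before capture. Cells in the single deposited table carried barcodes with suffix 0 (set 0, 5933 cells) or suffix 1 (set 1, 5938 cells). No label tied a suffix to a genotype, so Control and Tet3 knockout were not compared and each result is given for both sets side by side. In all, 818 barcodes occurred in both sets, and their set 1 cells were left out, which left 5120.

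Values are counts per 10000 of a cell (CP10K), averaged over the cells of a group, and paired values stand for set 0 and set 1 in that order. Because transcripts were tagged near their 3′ end, a level stands for molecules captured and is not scaled by gene length. Cells were grouped by Fabp1, a fatty acid binding protein of enterocytes, by Fabp6, the bile acid binding protein of ileal enterocytes, by the summed proliferation genes Mki67 and Top2a, and by the summed goblet genes Muc2, Fcgbp and Spink4. Summed over 10 enterocyte markers, the level was 180 and 162 CP10K in cells with Fabp1 below 40 of sets 0 and 1. In cells with Fabp1 above 100 it was 1033 and 909 CP10K. Fabp1, which defined these groups, is among the 10 markers, so part of that difference was set by the grouping. Markers of immune and endothelial cells summed to at most 0.0584 CP10K in any of the groups compared, although only 3 of the 5 immune markers were columns of the table, and mesenchymal markers reached 0.937 CP10K in cycling cells of set 1, where the part of such RNA in the results was not tested. Median depth per group lay between 10980.5 and 27083 recovered molecules (UMIs) per cell. There was 1 library per genotype and the cells of a set are not replicates, so no p-value was computed. A gene was called higher or lower where its group means differed by at least 1.5-fold in the same direction in both sets, among genes with a mean of at least 0.2 CP10K over all cells. Of the 46 members, 43 reached that minimum.

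Proteasome transcripts were abundant and were present in every epithelial group. Among the alpha genes, Psma7 had the highest mean over all cells (3.47 CP10K) and Psma5 the lowest (1.17 CP10K). Among the beta genes, Psmb4 was highest (3.30 CP10K) and Psmb7, which carries the trypsin-like site, was lowest (1.34 CP10K). Levels in the regulatory cap overlapped those of the core at their upper end. Of the ATPase genes, Psmc5 had 1.49 and Psmc1 0.752 CP10K, and of the Psmd genes, Psmd8 had 1.66 and Psmd5, a chaperone of cap assembly, 0.241 CP10K. The tissue-specific core genes were essentially silent. Psma8, the testis form of an alpha subunit, had 18 UMIs in all cells together, and Psmb11, the thymus form of a catalytic beta subunit, had 3.5. The third member under the minimum was Psmg3, at 0.191 CP10K over all cells, whose level varied more between groups than that of any member above the minimum.

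The sequence upstream of the start of 38 of the 46 members was taken from RefSeq (GRCm38.p6), as the 250 bases before each start. The windows below are shown for a core gene that was lower in Fabp1-high cells and holds a CCAAT box. They are also shown for the catalytic core genes Psmb5 and Psmb6, which hold letters of the antioxidant response element. The last are those of Psmb10 and Psme2, which ran the opposite way to the core. Bases in exons annotated by GENCODE were left off, each window reads 5′ to 3′ on the gene's strand, and capitals mark CCAAT or TGACNNNGC.
Psma3 (chr12:70974373-70974620, plus strand): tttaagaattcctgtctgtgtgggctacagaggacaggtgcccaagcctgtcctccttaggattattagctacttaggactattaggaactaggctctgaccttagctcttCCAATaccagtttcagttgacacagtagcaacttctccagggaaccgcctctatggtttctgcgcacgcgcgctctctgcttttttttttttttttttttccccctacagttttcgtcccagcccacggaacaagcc
Psmb5 (chr14:54618023-54618245, minus strand): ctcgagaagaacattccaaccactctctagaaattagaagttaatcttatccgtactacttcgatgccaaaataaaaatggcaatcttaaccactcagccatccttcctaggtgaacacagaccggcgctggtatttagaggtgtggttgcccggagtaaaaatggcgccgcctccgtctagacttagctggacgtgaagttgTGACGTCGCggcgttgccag
Psmb6 (chr11:70525107-70525356, plus strand): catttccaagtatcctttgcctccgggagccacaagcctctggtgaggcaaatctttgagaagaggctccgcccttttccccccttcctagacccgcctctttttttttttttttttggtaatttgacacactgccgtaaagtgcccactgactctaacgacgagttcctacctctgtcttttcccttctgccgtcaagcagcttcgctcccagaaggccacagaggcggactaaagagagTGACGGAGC
Psmb10 (chr8:105938445-105938642, minus strand): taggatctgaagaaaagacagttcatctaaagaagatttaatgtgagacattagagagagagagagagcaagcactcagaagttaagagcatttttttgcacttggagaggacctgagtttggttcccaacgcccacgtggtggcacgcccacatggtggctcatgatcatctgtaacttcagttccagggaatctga
Psme2 (chr14:55591114-55591351, minus strand): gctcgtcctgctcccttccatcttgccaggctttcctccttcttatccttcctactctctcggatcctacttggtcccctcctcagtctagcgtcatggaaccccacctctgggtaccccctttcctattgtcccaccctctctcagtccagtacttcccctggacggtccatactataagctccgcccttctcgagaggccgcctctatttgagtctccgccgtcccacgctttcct

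Letters were searched on both strands, and a match describes the sequence, not a bound site. TGACNNNGC, the core of the element read by the proteasome activators Nfe2l1 and Nfe2l2, occurred upstream of 5 of 38 members (13.2%), namely Psmb5, Psmb6, Psmc6, Psmd9 and Psmd12, against 13.3% of the 14140 genes of the table with an entry. CCAAT occurred upstream of 13 of 38 members (34.2%) against 39.4% of those genes, and GCATGCGC, letters bound by nuclear respiratory factor, upstream of 2 (5.26%, Psma2 and Psmc5) against 4.11%. The interferon-type letters GAAANNGAA were found upstream of 3 members (7.89% against 7.60%) and TTCNNNGAA upstream of 1 (2.63% against 7.41%). None of the 5 motifs was found in the windows of Psmb10, Psme1 or Psme2. The Psme1 window lies wholly inside the gene as GENCODE annotates it, and those of Psmb10 and Psme2 in part. Bases before those earlier starts were thus not all searched. Of the 15 members with an entry that were lower in Fabp1-high cells, 7 held CCAAT (46.7%). Of the 21 other members above the minimum 5 did (23.8%), a split made after the values were seen. The same split gave 13.3% and 14.3% for TGACNNNGC, 0 and 9.52% for GCATGCGC, and 6.67% and 9.52% for GAAANNGAA. For TTCNNNGAA it gave 6.67% and 0, and a link between letters and level was not tested.

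Summed levels of the core and of the cap both declined from cycling cells to cells with Fabp1 above 100 and Fabp6 below 10. With every cell placed in 1 group only, the 7 alpha and 7 beta genes summed to 45.5 CP10K in cycling cells of set 0 and 48.9 in set 1. The sum was 39.6 and 43.0 CP10K in non-cycling cells with Fabp1 below 40, then 35.7 and 39.3 with Fabp1 of 40 to 100. In cells with Fabp1 above 100 and Fabp6 below 10 it was 26.9 and 28.8 CP10K. The order of these groups was the same in both sets, from cycling cells down to Fabp1-high cells. The ATPase and non-ATPase genes of the cap gave 23.9 and 25.04 CP10K in cycling cells, 21.8 and 21.9 with Fabp1 below 40, and 14.0 and 14.4 with Fabp1 above 100 and Fabp6 below 10. With Fabp1 above 100 and Fabp6 above 50, the core sum was 25.7 and 25.5 CP10K and the cap sum 14.5 and 13.8. There the core was lower and the cap higher in set 0, while both were lower in set 1. Cells grouped by the goblet genes had core sums of 28.8 and 33.7 CP10K and cap sums of 16.5 and 18.0. Psmb10, Psme1 and Psme2 together ran the other way between the Fabp1 groups, from 4.33 and 5.65 CP10K with Fabp1 below 40 to 7.42 and 8.57 CP10K with Fabp1 above 100 and Fabp6 below 10, a ratio of 1.71 and 1.52.

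**Figure D1:**
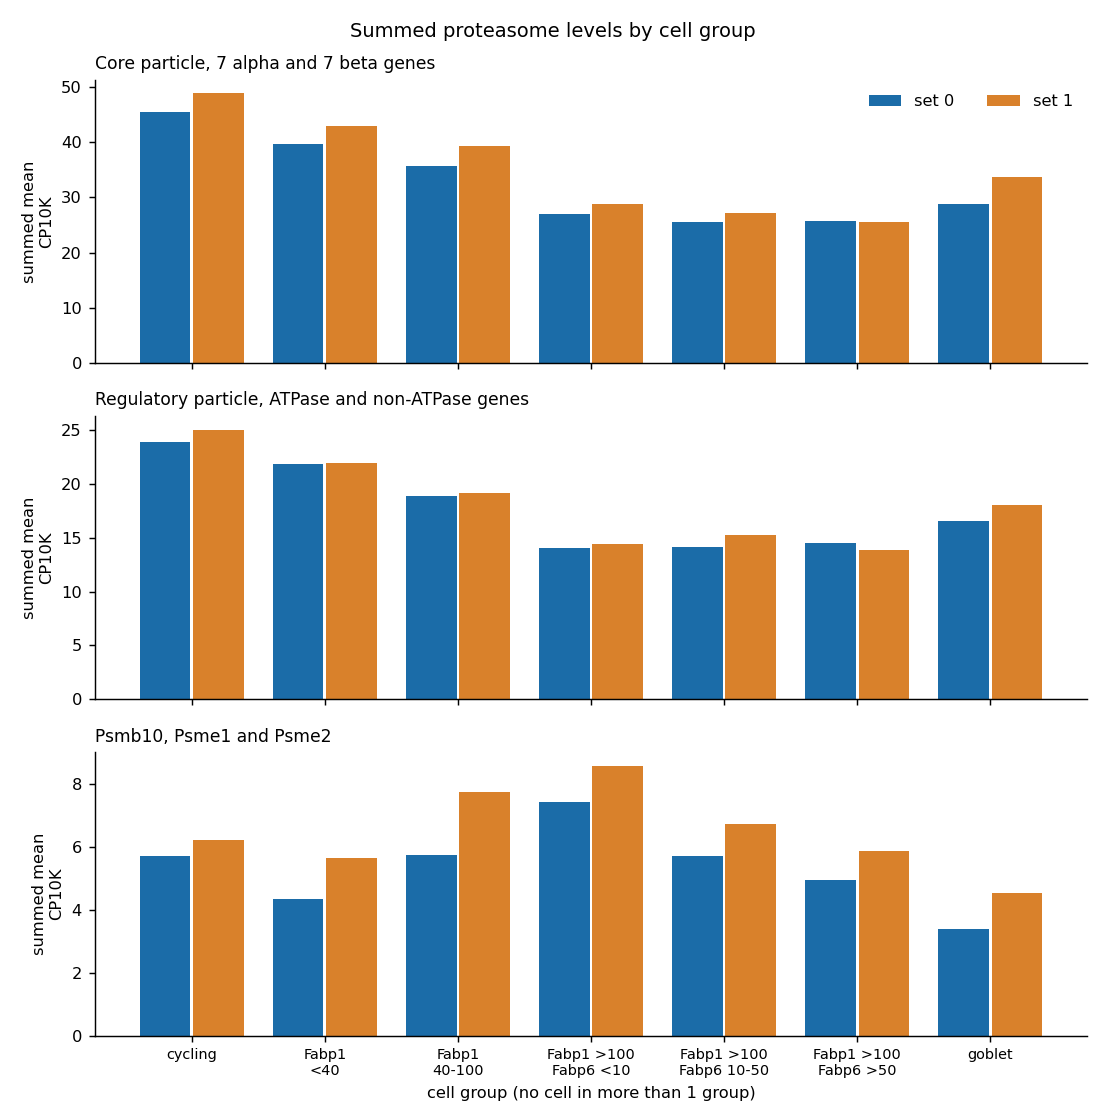
Summed mean CP10K (vertical axes from 0) of the core, the regulatory cap, and Psmb10 with Psme1 and Psme2 in 7 non-overlapping cell groups, with 1 bar per barcode set. Core and cap bars are tallest in cycling cells and lowest in cells with Fabp1 above 100, while the bars of Psmb10, Psme1 and Psme2 are tallest at 7.42 and 8.57 CP10K in cells with high Fabp1 and low Fabp6.

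The first comparison followed Fabp1 level, with cells above 100 CP10K of Fabp1 (3354 in set 0, 2786 in set 1) set against cells below 40 (2094 and 1770). In set 0, 22.7% of the cells below 40 had Fabp6 above 50, against 0 in set 1. The Fabp1-low side of set 0 thus held ileal-type cells beside less differentiated ones. Core and cap genes alike were lower in the Fabp1-high cells. Of the 43 members, 20 were lower by at least 1.5-fold in both sets, where 18.6% of the 5061 genes tested were. Only 1 member was higher, Psmb10, where 9.03% of genes were. The median log2 ratio over members was -0.61 in set 0 and -0.60 in set 1, against -0.14 and -0.09 over all genes, and 40 members lay below 0 in both sets.

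The alpha genes had a median log2 ratio of -0.76 and -0.78, and 5 of 7 were called lower. Psma3 had 3.12 CP10K in Fabp1-low and 1.72 in Fabp1-high cells of set 0, and 3.25 and 1.59 CP10K in set 1 (log2 ratios -0.86 and -1.03). Psma4 had the smallest difference of the alpha genes by the mean of both sets, at -0.57 and -0.49, and was not called. The alpha genes thus lay on 1 side of 0 in both sets, without exception among the 7.

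The beta genes 1 to 7 had a median of -0.57 and -0.60, with 3 of 7 called lower. Psmb5, which carries the chymotrypsin-like site, had 4.10 CP10K in Fabp1-low and 2.84 in Fabp1-high cells of set 0, and 3.82 and 2.53 in set 1. Its ratios of -0.53 and -0.60 fell short of 1.5-fold in set 0. Psmb6, with the caspase-like site, was called lower at 3.66 against 2.39 CP10K in set 0 and 4.03 against 2.58 in set 1 (-0.61 and -0.64). Psmb7 was called lower as well, from 1.61 to 0.962 CP10K in set 0 and from 1.86 to 1.17 in set 1 (-0.74 and -0.67). Psmb4, a structural beta subunit, had the smallest difference among these 7, -0.37 and -0.35. The 3 constitutive catalytic genes therefore had similar ratios, on either side of the 1.5-fold line.

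In the regulatory cap, the ATPase genes had a median of -0.60 and -0.59 (2 of 6 called lower) and the 11 non-ATPase genes -0.72 and -0.62 (7 of 11). Psmc2 was called lower at -0.79 and -0.81, and Psmc1 had -0.56 and -0.46. Psmd7, which pairs with the deubiquitinase Psmd14, differed most among the Psmc and Psmd genes. Its level was 1.70 CP10K in Fabp1-low and 0.704 in Fabp1-high cells of set 0, and 1.81 and 0.812 in set 1 (-1.26 and -1.15). Psmd14, which removes the ubiquitin chain before degradation, was called lower from 0.684 to 0.422 CP10K in set 0 and from 0.719 to 0.429 in set 1 (-0.68 and -0.73). Psmd8 showed little difference, at -0.25 and -0.35. All 17 ATPase and non-ATPase genes lay below 0 in both sets, with Psmd7 and Psmd8 at the ends.

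The assembly chaperones divided. Psmg1 and Psmg2, which pair to assemble the alpha ring, were both called lower. Psmg1 had 0.397 against 0.141 CP10K in set 0 and 0.613 against 0.246 in set 1 (-1.43 and -1.28), and Psmg2 had -1.09 and -1.10. Psmg3, the partner of Psmg4, went from 0.390 to 0.0256 CP10K in set 0 and from 0.536 to 0.0285 in set 1, a fold of 11.2 and 14.2 with 0.01 CP10K added to both levels. It stood under the minimum because most cells were Fabp1-high, so it is not among the 20. Psmg4 differed far less (-0.43 and -0.41, not called), although both proteins act as a pair. Of the chaperones of the cap base, Psmd5 was called lower (-0.68 and -0.60) while Psmd9 had -0.01 and -0.28 and Psmd10 -0.14 and -0.20. In the GENCODE annotation Psmg3 shares exon bases with Gm26938 on the same strand, as Psmb5 does with Mir686 and Psmd1 with Gm21972, so these values are uncertain where reads were split. Of their values above 0, 99.7%, 98.8% and 98.4% were whole UMIs within 0.01. The share was lower for Psma3 (90.5%) and Psma5 (93.9%), so the same caution holds for those genes.

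Psmb10, the inducible subunit that replaces Psmb7, was the only member called higher in Fabp1-high cells. Its level was 1.02 CP10K in Fabp1-low and 1.67 in Fabp1-high cells of set 0, and 1.35 and 2.23 in set 1 (log2 ratios 0.71 and 0.72). Summed UMIs gave 1.01 per 10000 (exact Poisson 95% interval 0.978 to 1.03) against 1.63 (1.61 to 1.66) for Psmb10 in set 0, and 1.31 (1.27 to 1.34) against 2.17 (2.14 to 2.21) in set 1. The intervals did not overlap between the Fabp1 groups in either set. They cover counting error only, are narrow at these UMI totals and give no spread between libraries. Psme1 had 2.01 against 2.87 CP10K in set 0 and 2.58 against 3.58 in set 1 (0.51 and 0.47, not called). Psme2 had 1.55 against 2.36 CP10K in set 0 and 1.78 against 2.62 in set 1 (0.60 and 0.55), past 1.5-fold in set 0 only, so with set 0 alone 2 members counted as higher, where 10.1% of genes did. The Psmb10 call was lost in cells with Fabp6 below 10 (mean log2 ratio of both sets 0.61) and with totals taken without mitochondrial, ribosomal protein and haemoglobin genes (0.53), its sign staying positive. Psme3, which forms the nuclear cap of this family, had -0.80 and -0.57, Psme4, a large single-chain activator, -0.38 and -0.24, and the inhibitor Psmf1 -0.33 and -0.21. Psme2 has a near-identical copy in the table, Psme2b, at 0.0193 and 0.0103 CP10K, and reads of the pair could be split between them.

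**Figure D2:**
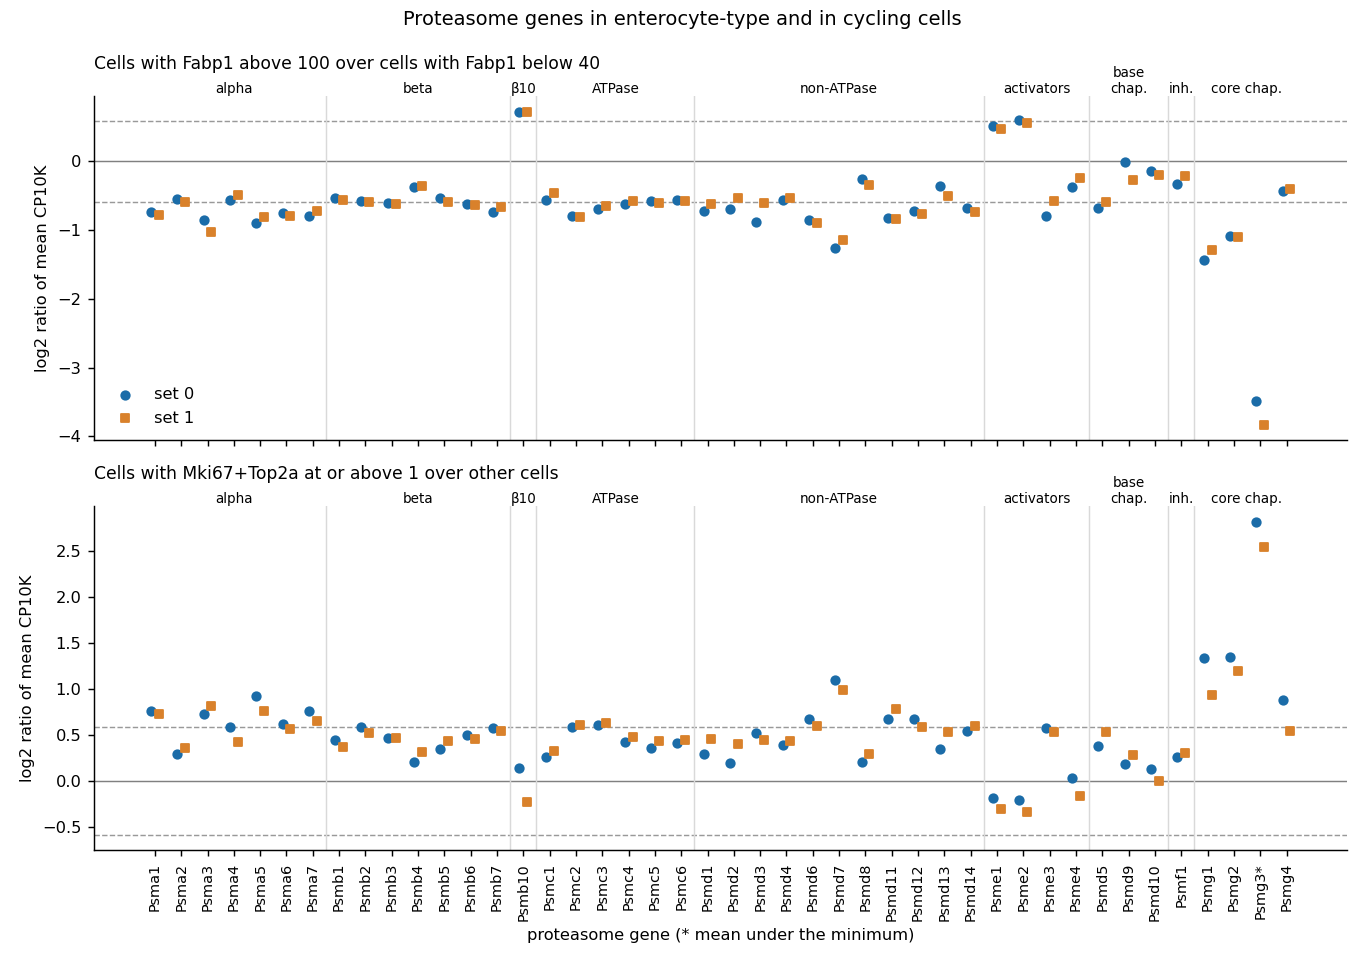
Log2 ratio of mean CP10K (vertical axes) for the 44 members other than Psma8 and Psmb11, ordered by subunit class, with circles for set 0 and squares for set 1 and dashed lines at 1.5-fold. In the upper panel (Fabp1 above 100 over below 40) nearly all members lie below 0 apart from Psmb10, Psme1 and Psme2, and in the lower panel (cycling over other cells) most lie above 0, with Psmg3 farthest from 0 in both.

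Several other measures moved with Fabp1. Ribosomal protein genes took 19.3% and 20.4% of the signal in Fabp1-low cells and 9.56% and 11.4% in Fabp1-high cells, and mitochondrial genes 6.35% and 5.87% against 7.86% and 8.02%. Under totals without these genes and haemoglobin genes, the median of all genes shifted by -0.16 and -0.13, and that of the members was -0.78 and -0.73. Relative to all genes, the members' median was -0.48 and -0.51 under that scaling and -0.47 and -0.51 under the deposited one. A change of total moves all genes of a cell by the same factor, so this difference could hardly change. Cycling cells made up 24.4% and 26.2% of the Fabp1-low cells and 1.49% and 1.15% of the Fabp1-high cells. With cycling and goblet cells removed, 15 of 43 members were lower, where 15.2% of all genes were, and 1 was higher, where 6.46% were. The members' median there was -0.58 and -0.56, against -0.18 and -0.13 over all genes. In those cells Psmb10 had 0.856 CP10K with Fabp1 below 40 and 1.68 above 100 in set 0, and 1.27 and 2.23 in set 1 (0.96 and 0.81), as cycling cells had held more of it than other Fabp1-low cells. Cells with Fabp6 above 50 were 22.7% of the Fabp1-low cells in set 0 and 0 of 1770 in set 1, while the members' medians were -0.61 and -0.60. As the unit is a share of a cell's transcripts, fewer proteasome transcripts and more of other transcripts cannot be told apart.

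Cells with Fabp1 between 40 and 100 lay between the other groups. Against cells with Fabp1 below 40, 0 of 43 members were called, where 4.05% of all genes were lower and 3.91% higher, and the members' median was -0.18 and -0.21. From there to cells above 100 it was -0.45 and -0.38, against -0.14 and -0.09 over all genes. In that step 4 of 43 members were called lower, a share near the 7.59% of all genes, and 0 higher, where 2.23% were. In finer steps of Fabp1, with cycling and goblet cells left out, the core sum was 40.5 CP10K below 5 CP10K of Fabp1 and 25.7 at 200 or more in set 0, and 42.0 and 27.0 in set 1. Most of that difference lay above 40 CP10K of Fabp1, as the core sum was still 38.4 and 43.5 CP10K in the step from 20 to 40. Psmb10, Psme1 and Psme2 had their largest difference at the other end in set 1, with 4.73 CP10K below 5 and 7.25 from 20 to 40, and reached 8.69 at 200 or more. In set 0 their sum was 3.95, 5.31 and 7.21 CP10K in the same steps. Psmg1 to Psmg4 summed to 1.31 and 1.64 CP10K below 5 and to 0.592 and 0.729 at 200 or more.

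**Figure D3:**
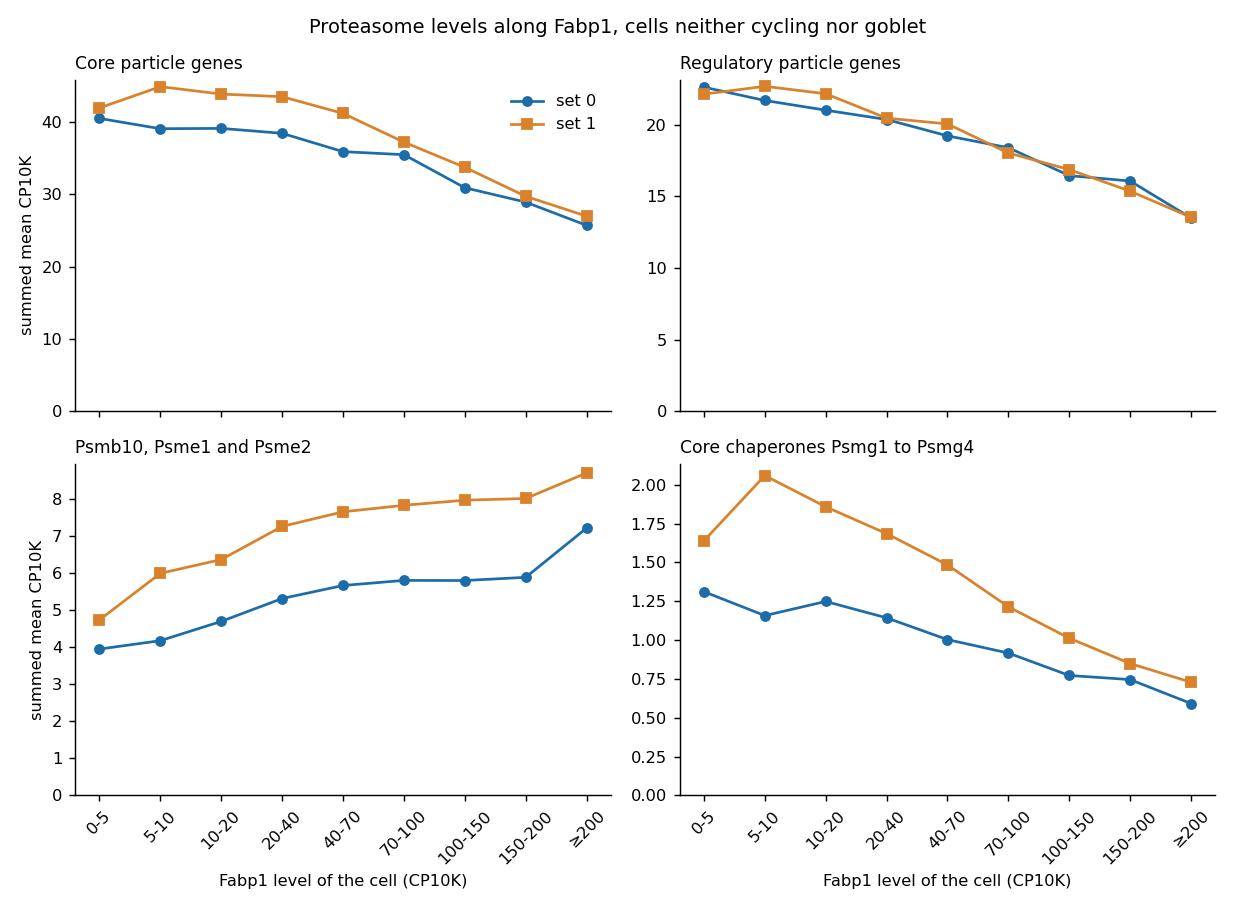
Summed mean CP10K (vertical axes from 0) of core, cap, Psmb10 with Psme1 and Psme2, and core chaperone genes in 9 steps of Fabp1 level (horizontal axis, CP10K), in cells neither cycling nor goblet, with 1 line per barcode set. Core and cap decline mostly above 40 CP10K of Fabp1, whereas Psmb10 with Psme1 and Psme2 climbs from 3.95 to 7.21 CP10K in set 0 and from 4.73 to 8.69 in set 1.

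The sums were also followed from cell to cell within a group. In non-cycling cells with Fabp1 below 40, the core sum and the cap sum had a Spearman rank correlation of 0.66 over 1030 cells of set 0 and 0.73 over 873 cells of set 1. Between the core sum and the sum of Psmb10, Psme1 and Psme2 it was 0.42 and 0.31. In cells with Fabp1 above 100 and Fabp6 below 10 the first pair had 0.51 over 1847 cells and 0.53 over 1916, and the second 0.06 and -0.04. These are descriptions of cells between 15000 and 35000 UMIs that share a library and a total, and sums of fewer UMIs are noisier, so no test is given.

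The second comparison set cycling cells, with Mki67 and Top2a summing to at least 1 CP10K (597 in set 0, 538 in set 1), against the other cells. A part of the proteasome was higher in cycling cells, with the largest ratios among the assembly chaperones, Psmd7 and the alpha ring. Of 43 members, 12 were higher by at least 1.5-fold in both sets, where 17.0% of all genes were, and 0 were lower, where 21.5% were. The members' median log2 ratio was 0.47 in both sets, against -0.05 and -0.05 over all genes.

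The 12 comprised 4 alpha genes, 2 ATPase genes, 4 non-ATPase genes and the chaperones Psmg1 and Psmg2. Psma5 had 1.83 CP10K in cycling and 0.961 in other cells of set 0, and 2.07 and 1.22 in set 1 (0.92 and 0.76), and Psma2 had the smallest alpha ratio (0.30 and 0.36). None of the beta genes was called. Their median was 0.47 and 0.46, with Psmb5 at 0.34 and 0.44, Psmb6 at 0.50 and 0.46, and Psmb7 at 0.58 and 0.55. Psmc3 was called higher (0.60 and 0.63), and Psmc1 had 0.26 and 0.32. Psmd7 again led the cap genes, with 2.11 against 0.981 CP10K in set 0 and 2.19 against 1.10 in set 1 (1.10 and 0.99). Psmd14 had 0.54 and 0.60, past 1.5-fold in set 1 only.

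Among the chaperones, Psmg2 had 0.578 CP10K in cycling and 0.221 in other cells of set 0 and 0.656 and 0.281 in set 1 (1.35 and 1.20), and Psmg1 had 1.34 and 0.93. Psmg3 had 0.764 against 0.0991 CP10K in set 0 and 0.884 against 0.142 in set 1 (2.83 and 2.55), and Psmg4 had 0.88 and 0.54. The cap chaperones Psmd5 (0.38 and 0.53), Psmd9 (0.18 and 0.28) and Psmd10 (0.13 and 0.00) were not called. Psmb10 had 0.15 and -0.24, Psme1 -0.18 and -0.31, Psme2 -0.21 and -0.34, Psme3 0.58 and 0.53, Psme4 0.03 and -0.16, and Psmf1 0.26 and 0.31. The inducible subunit and the Psme1 and Psme2 cap were thus not called in either direction. The sign for Psmb10 depended on the set, on the total used for scaling and on the cells compared. Its mean of both sets was -0.05 over all cells, and 0.11 under totals without mitochondrial, ribosomal protein and haemoglobin genes. Within cells below 40 CP10K of Fabp1 the mean was 0.60.

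Fabp1 and cycling were not independent, since 511 of the 597 cycling cells of set 0 and 463 of the 538 of set 1 lay in the Fabp1-low group. Compared only with other cells below 40 CP10K of Fabp1 and with goblet cells left out, cycling cells had 1 of 43 members higher, Psmg2 (0.96 and 0.76), where 8.04% of all genes were, and 0 lower, where 20.4% were. The members' median was 0.21 and 0.22 against -0.10 and -0.10 over all genes, and with the minimum taken within these cells it was 0.22 and 0.22 against -0.02 and -0.03, with Psmg3 then called as well. In this subset Psmb10 had 1.55 against 0.856 CP10K in set 0 and 1.61 against 1.27 in set 1 (0.85 and 0.34), past 1.5-fold in set 0 only, Psme1 had 0.22 and -0.01, and Psme2 had 0.22 and 0.03. Psmg3 had 0.849 against 0.251 CP10K in set 0 and 0.979 against 0.379 in set 1, and Psmd7 had log2 ratios of 0.55 and 0.50. Ribosomal protein genes took 23.3% and 22.2% of the signal of cycling cells, against 12.3% and 14.2% of other cells. With totals that leave those genes out, the median of all genes shifted by 0.19 and 0.13 and 20 members were higher, where 21.8% of all genes were. Relative to all genes the members' median was 0.51 and 0.50, against 0.51 and 0.52 under the deposited scaling. Here too a change of total could hardly move that difference.

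**Figure D4:**
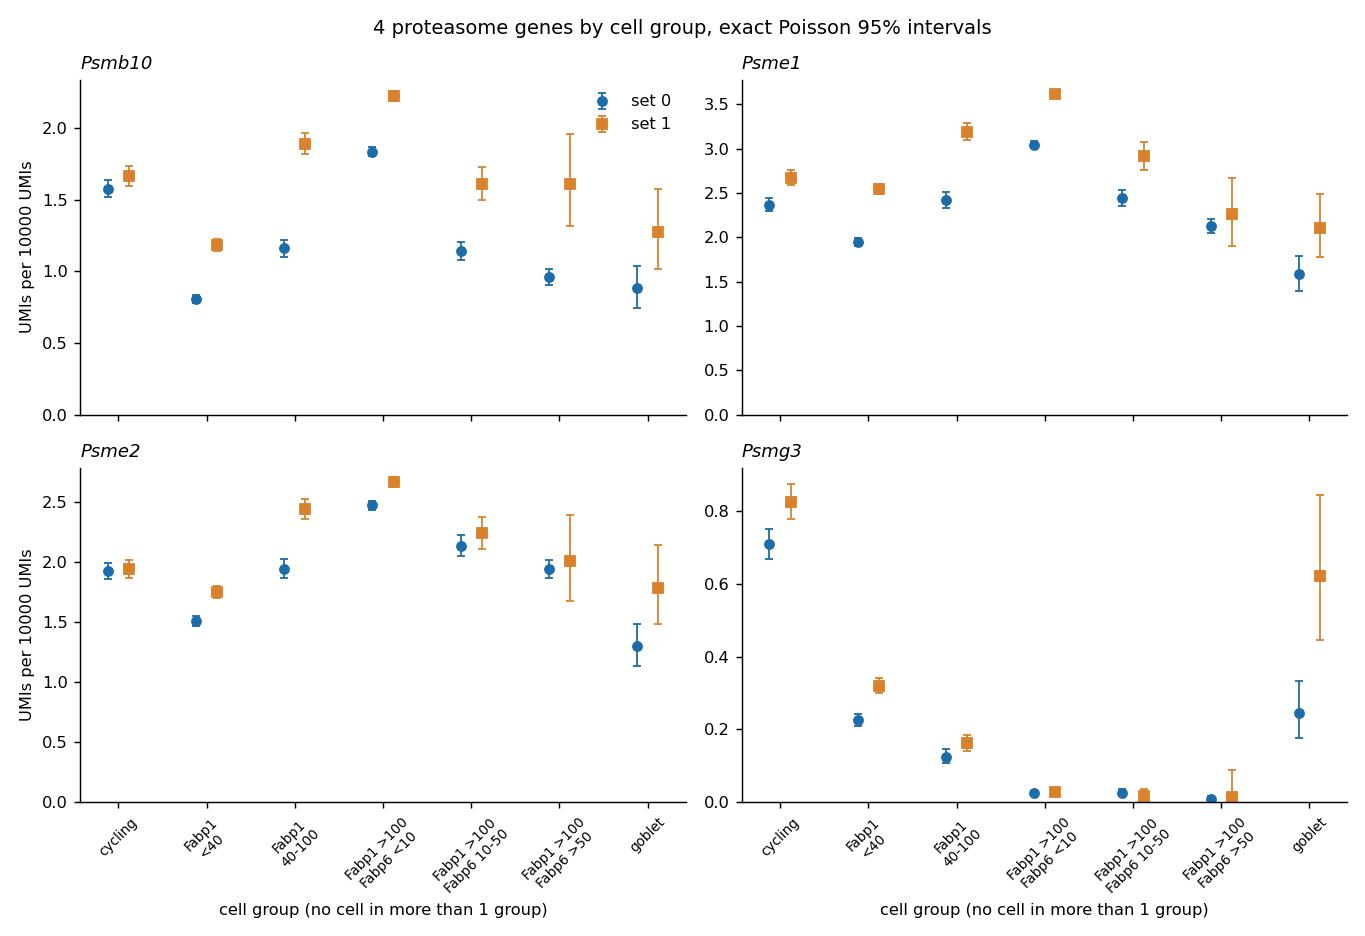
UMIs per 10000 UMIs (vertical axes from 0) of Psmb10, Psme1, Psme2 and Psmg3 in 7 non-overlapping cell groups, with circles for set 0, squares for set 1 and exact Poisson 95% intervals that cover counting error only. Psmb10, Psme1 and Psme2 peak in cells with Fabp1 above 100 and Fabp6 below 10, and Psmg3 is highest in cycling cells (0.708 and 0.825) and near 0 in all cells with Fabp1 above 100.

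The third comparison followed ileal identity, with cells above 50 CP10K of Fabp6 set against cells below 10. It rests mainly on set 0, which held 1108 such cells, as set 1 held 27. With the shared barcodes kept, set 1 held 206, so most of its Fabp6-high cells carried a barcode also present in set 0, and where their RNA came from was not tested. Of 43 members 1 was lower in both sets, where 9.62% of all genes were, and 0 were higher, where 5.18% were. The gene was Psmg1, with 0.119 against 0.286 CP10K in set 0 and 0.117 against 0.409 in set 1 (-1.19 and -1.72). In set 0 alone 3 members were lower, where 12.0% of genes were, and in set 1 alone 12, where 23.1% were. The members' median was -0.15 and -0.41, against 0.01 and -0.10 over all genes. With the shared barcodes kept, the set 1 median was -0.19 against -0.03, and Psmb10 (mean log2 ratio of both sets -1.18) and Psmg4 were called lower beside Psmg1. These calls were not set against the share of all genes under that setting.

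Structural genes showed small ratios in the better-filled set 0. The alpha genes had a median of -0.35 and -0.81, from Psma5 at -0.52 and -1.13 to Psma2 at -0.02 and -0.81. The beta genes had -0.16 and -0.32, with Psmb5 at 0.04 and -0.27, Psmb6 at -0.19 and -0.32, and Psmb7 at -0.09 and -0.34. In the cap, the ATPase genes had -0.02 and -0.41, from Psmc6 (-0.08 and -0.71) to Psmc3 (-0.03 and 0.01). The non-ATPase genes had -0.10 and -0.31, from Psmd7 (-0.36 and -1.10) to Psmd1 (0.31 and 0.05), with Psmd14 at -0.23 and -0.90.

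Psmb10 stood apart in set 0, at 1.70 CP10K in cells with Fabp6 below 10 and 0.706 in cells above 50 (-1.26). In set 1 it had 1.92 and 1.63 CP10K (-0.24), so it was not called. The 2 sets also differed in what they compared, since 476 of the 1108 Fabp6-high cells of set 0 and 0 of the 27 of set 1 had Fabp1 below 40. Among cells with Fabp1 of at least 40, Psmb10 had 0.903 against 1.87 CP10K in set 0 (-1.04) and 1.63 against 2.23 in set 1 (-0.45). Psme1 there had -0.55 and -0.71 and Psme2 -0.38 and -0.36. In that subset 1 member was again lower, Psmg1 (-0.69 and -1.26), where 3.75% of all genes were, and 0 were higher, where 4.45% were, with a members' median of -0.03 and -0.26 against 0.04 and -0.07. In the Fabp1-high cells the core sum was 26.9 CP10K with Fabp6 below 10 and 25.7 with Fabp6 above 50 in set 0 (28.8 and 25.5 in set 1), while Psmb10, Psme1 and Psme2 summed to 7.42 and 4.95 CP10K (8.57 and 5.85 in set 1).

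Over all cells of this comparison, the activators Psme3 (0.06 and 0.48) and Psme4 (0.32 and 0.41), the inhibitor Psmf1 (0.03 and -0.54) and the cap chaperones Psmd5 (0.24 and -0.39), Psmd9 (-0.15 and 0.06) and Psmd10 (-0.15 and -0.32) were not called. Psmg4 had 0.172 against 0.391 CP10K in set 0 and 0.267 against 0.370 in set 1 (-1.14 and -0.45), and Psmg2 had -0.45 and -0.22. Psmg3 had 0.0219 against 0.224 CP10K in set 0 and 0.0143 against 0.230 in set 1.

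The fourth comparison concerned secretory cells, with Muc2, Fcgbp and Spink4 summing to at least 20 CP10K. It held 76 cells in set 0 and 48 in set 1, with median depths of 18703 and 10980.5 UMIs against 23679 and 22436 in the other cells. These cells also carried Paneth markers (25.8 and 40.4 CP10K summed over 5 genes) and the hormone gene Sct (14.5 and 16.1 CP10K), so the group is named by its score and not as goblet cells alone. Of 43 members 3 were lower, where 13.4% of all genes were, and 1 was higher, where 9.37% were. The members' median was -0.15 and -0.07, beside -0.09 and -0.10 over all genes, so the proteasome as a whole lay close to the rest of the transcriptome.

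The 3 lower members were Psmb10, Psme1 and Psme2. Psmb10 had 0.912 against 1.42 CP10K in set 0 and 1.12 against 1.91 in set 1 (-0.63 and -0.76). Psme1 had 1.41 against 2.55 CP10K in set 0 and 1.88 against 3.21 in set 1 (-0.85 and -0.77), and Psme2 had 1.07 against 2.05 and 1.53 against 2.32 (-0.94 and -0.60). The higher member was Psme4, with 0.602 against 0.350 CP10K in set 0 and 0.551 against 0.322 in set 1 (0.77 and 0.76), resting on 97 and 32 UMIs. Most of the other cells were Fabp1-high, where Psmb10, Psme1 and Psme2 were at their highest. Against non-cycling cells with Fabp1 below 40, Psmb10 had 0.09 and -0.18, Psme1 -0.47 and -0.47, Psme2 -0.50 and -0.22, and Psme4 0.49 and 0.55, and none of the 4 was called. In that comparison 1 of 43 members was lower, Psmc4 (-0.59 and -0.69), where 9.31% of all genes were, and 0 were higher, where 6.26% were, and the members' median was -0.36 and -0.31 against -0.17 and -0.16 over all genes. With summed UMIs the calls of Psmb10, Psme2 and Psme4 were lost, and between 15000 and 35000 UMIs those of Psme1 and Psme2.

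Of the remaining members above the minimum none was called, although Psme3 was past 1.5-fold in set 1. Psma7 had 0.05 and 0.06 and Psma2 -0.36 and -0.21. Among the catalytic genes, Psmb5 had -0.27 and -0.05, Psmb6 0.02 and 0.09, and Psmb7 -0.27 and -0.02. Of the ATPase genes, Psmc3 had 0.17 and -0.03 and Psmc4 -0.28 and -0.43, and of the non-ATPase genes, Psmd7 had 0.33 and 0.36 and Psmd14 -0.22 and -0.37. Psme3 had 0.29 and 0.59 and Psmf1 0.20 and -0.28. The chaperones Psmg1 (0.17 and 0.07), Psmg2 (0.24 and 0.18) and Psmg4 (-0.13 and -0.15) were not called, nor were Psmd5 (0.23 and 0.05), Psmd9 (-0.39 and 0.28) and Psmd10 (-0.02 and -0.42). Psmg3, under the minimum, had 0.218 against 0.165 CP10K in set 0 and a larger difference in set 1, 0.589 against 0.217.

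**Figure D5:**
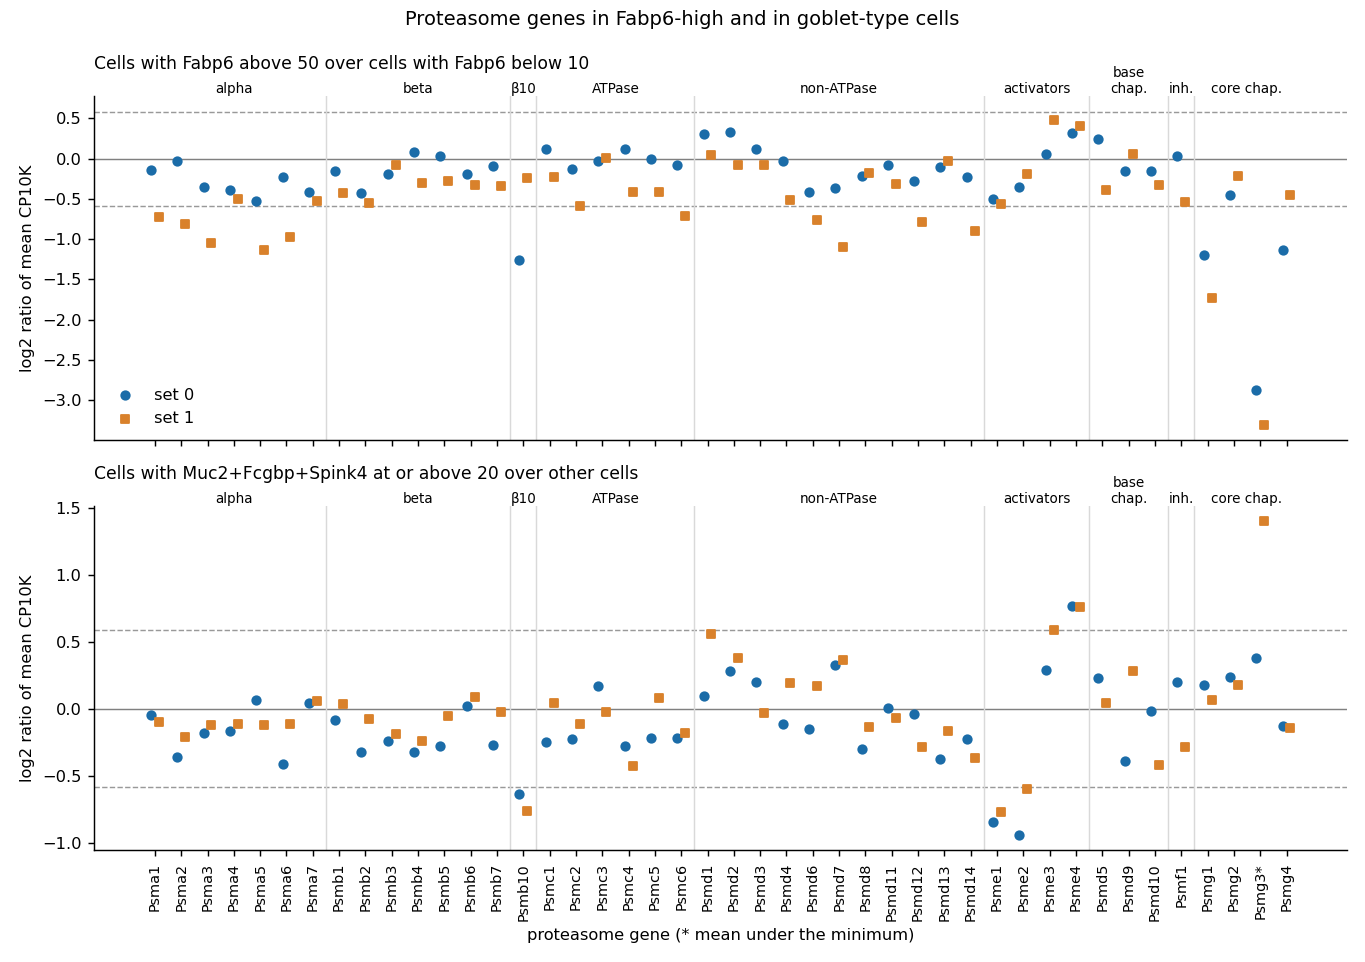
Log2 ratio of mean CP10K (vertical axes) for the 44 members other than Psma8 and Psmb11, ordered by subunit class, with circles for set 0 and squares for set 1 and dashed lines at 1.5-fold. In the upper panel (Fabp6 above 50 over below 10) the 27 Fabp6-high cells of set 1 give more scattered and mostly lower values, and in the lower panel (goblet over other cells) Psmb10, Psme1 and Psme2 lie below -0.58 and Psme4 above 0.58 in both sets.

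The genes that act with the proteasome were read from a list of 32, of which 28 were in the table and 23 reached the minimum. In Fabp1-high cells 0 of 23 were higher, where 9.03% of all genes were, and 4 were lower, a share near the 18.6% over all genes. They included Usp14, the deubiquitinase bound to the cap (0.541 against 0.213 CP10K in set 0 and 0.613 against 0.308 in set 1), the shuttle receptor Rad23b (-0.87 and -0.76), and the Vcp cofactor Nsfl1c (-0.66 and -0.63). In cycling cells 0 were lower, where 21.5% of all genes were, and 4 were higher, again a share near the 17.0% over all genes. They included Usp14 (1.15 and 0.87), the deubiquitinase Uchl5 (0.93 and 0.79) and Akirin2, which carries proteasomes into the nucleus (0.84 and 0.80). The transcription factor Nfe2l1, which drives proteasome genes, had -0.15 and 0.04 with Fabp1 and -0.50 and -0.27 in cycling cells, and the related Nfe2l2 had 0.49 and 0.66 with Fabp1. In Fabp6-high cells 1 was higher, Nfe2l1 (0.231 to 0.357 CP10K in set 0 and 0.241 to 0.396 in set 1), where 5.18% of all genes were higher. There 0 were lower, where 9.62% of all genes were. The next largest ratios were those of Akirin2 (-0.31 and -0.95) and Vcp (0.52 and 0.48). In the goblet-score group none was called, where 13.4% of all genes were lower and 9.37% higher. Rad23b (0.58 and 0.66), Faf1 (0.32 and 0.83) and Vcp (0.69 and 0.45) had the largest ratios there.

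Between the 2 sets, levels of most members were close. Over all cells, Psmb5 had 3.36 CP10K in set 0 and 3.08 in set 1, and Psmd8 had 1.66 and 1.67. Psmb10 had 1.41 and 1.90, Psme1 2.53 and 3.19, and Psmg1 0.243 and 0.400. Within non-cycling cells with Fabp1 below 40, Psmb10 had 0.856 and 1.27 CP10K and Psmg1 0.335 and 0.570, and within cells with Fabp1 above 100 and Fabp6 below 10 Psmb10 had 1.88 and 2.27 and Psmg1 0.151 and 0.248. Both genes were thus higher in set 1 within groups of the same borders. The Fabp1-low groups were not matched for Fabp6. Of all cells with Fabp1 below 40, cycling cells included, 22.7% had Fabp6 above 50 in set 0 and 0 in set 1. Shared barcodes were left out of set 1 only. Library, genotype, intestinal position and that filter cannot be told apart in these differences.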

How the data were processed

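Single-cell RNA of mouse small intestine epithelium was read from 1 table of 11871 cells by 25663 genes. The deposited values are a signal scaled by the authors so that each cell sums to 10000. Per the submitters' processing notes, Salmon 0.14.1, alevin, Scanpy 1.6.0 and the builds GRCm38 and mm10 were used. Cell filters of the authors were not given in these sources. The comparison of Control with Tet3 knockout could not be made, because no label assigns barcode suffixes to libraries.

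In each cell the commonest value above 0 was taken as 1 UMI, after which 94.9% of values in the median cell were whole within 0.01. Depth had a median of 22382 UMIs and a range of 1153 to 250633, and intervals are exact Poisson at 95%. Doublets were not called, and an added setting left out the 5% of cells with the most UMIs. Group means were compared as log2 ratios with 0.01 CP10K added, per set, with Python 3.11.15, NumPy 2.4.6, SciPy 1.17.1 and pandas 2.3.3, and the step was tested on simulated data. No test of samples was possible with 1 library per genotype.

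The members and gene lists were chosen with earlier results of these data known. All members could be named. Values were given for the catalytic, deubiquitinase, activator, inhibitor, chaperone and tissue-specific genes, and for the highest, lowest and most different member of each subunit class. Of the listed pathway genes, the 3 largest ratios per comparison were named, together with Nfe2l1 and Nfe2l2, and some called genes are not reported here by name. Single genes outside that rule, and the letters GAAANNGAA and TTCNNNGAA, were added after the values were seen. Other pseudocounts, minimums, totals, cell filters, folds, borders and depth windows were tried, and the closing section gives their effect.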

Additional observations from a re-analysis of the deposited data

How the results depend on the processing

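No paired analysis was possible because both libraries carry replicate number 1 only, cells are not assigned to libraries and no test was run. Over all alternatives, 93 counts of members called were within 1.5 times the count reported and 37 were not. Among members called as reported, 0 changed the sign of their mean log2 ratio of both sets. Members not called were left out of that count, so it says nothing about them. Psmb10 in the cycling comparison, not called, went from -0.05 to 0.60 within cells with Fabp1 below 40. In the Fabp1 comparison (20 lower, 1 higher) a minimum of 1 CP10K left 11 lower. Fewer members were tested at that minimum in every comparison, so its counts cannot be compared directly with those reported. The members' median there was -0.57 and -0.60, against -0.61 and -0.60 as reported. Totals without mitochondrial, ribosomal protein and haemoglobin genes gave 33 lower and 0 higher (1438 and 398 of 5738 genes). The smaller fold tried, below 1.5, gave 35 and 3, and a fold of 2 gave 3 and 0. Counts given in this section without a number of genes are not set against all genes. Higher members numbered 2 with the stricter cell filter, in set 0 alone and with borders of 20 and 150, and 0 with Fabp6 below 10. In the Fabp6 comparison (1 lower, 0 higher) the lower count was 0 with the minimum of 1 and 2 with no minimum. It was 3 without those genes in the total (713 of 5738 genes), with shared barcodes kept, under the stricter filter and in set 0 alone. Borders of 5 and 100 gave 4, the smaller fold 10 and set 1 alone 12, and 1 was higher at the smaller fold. Set 1 held only 12 Fabp6-high cells under the stricter filter and 3 with borders of 5 and 100. In the cycling comparison (12 higher) the count was 7 with the minimum of 1, where the members' median was 0.46 in both sets, against 0.47 as reported. The count was 20 without those genes in the total (984 lower and 1249 higher genes), 30 at the smaller fold and 1 at 2-fold. In Fabp1-low cells without goblet cells it was 2. In the goblet comparison (3 lower, 1 higher), 1 was lower with summed UMIs, without those genes in the total (1 higher, and 643 lower and 697 higher genes), between 15000 and 35000 UMIs and against non-cycling Fabp1-low cells, and 0 at 2-fold. Higher members there were 0 with summed UMIs, the minimum of 1, 2-fold and the Fabp1-low reference, and 2 at the smaller fold and in set 1 alone. The settings that use 1 set alone, leave out the cells with the most UMIs or take cells with Fabp6 below 10 were chosen after seeing the data. Depth limits the goblet group and the 27 Fabp6-high cells of set 1, where Psmg1 rested on 8 UMIs.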
